A study of Mus musculus with 8 samples.

Results

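The expression of 8 genes of thyroid hormone handling was followed in mouse pancreatic islets with and without Notch activation in β cells. These were the deiodinases Dio1, Dio2 and Dio3, the nuclear receptors Thra and Thrb, the membrane transporters Slc16a10 and Slco1c1, and the response gene Thrsp, taken by symbol from the 32531 genes of the deposited count table. The genes were listed by function at a time when their values in these libraries were known, and Dio2 had one of the largest fold changes of the series. They were therefore chosen by values from the same contrast that is described here, so their levels and fold changes are given as a description. No p-value is given for them, and the number past the threshold is set beside the share of all genes.

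Thyroid hormone circulates mainly as the prohormone thyroxine (T4). Transporters carry it into cells, and deiodinases, which are selenoproteins, then remove iodine from its rings: DIO2 converts T4 to the active hormone T3, DIO3 inactivates both hormones, and DIO1 can do either. T3 binds the nuclear receptors encoded by Thra and Thrb, which act on their target genes with retinoid X receptors. In the islet, T3 is known as a signal in the postnatal maturation of β cells.

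The islets came from control and β-tetO-NICD mice (4 libraries each) on a mixed C57BL/6J, 129X1/SvJ and BALB/c background, all of which had received doxycycline (Dox) in the drinking water for 8 weeks. The labels gave no ages. β-tetO-NICD mice carried RIP-Cre, which uses the rat insulin promoter and so acts in β cells, Rosa26-rtTA, the Dox-dependent activator that Cre switches on, and tetO_NICD, a Dox-inducible Notch1 intracellular domain. Controls carried RIP-Cre and Rosa26-rtTA without tetO_NICD, so Cre, the activator and Dox were common to both groups. Whole islets were sequenced, so the genes of non-β cells were measured too. From these libraries alone, a change in the number of cells of a type and a change in RNA per cell cannot be told apart. β-tetO-NICD libraries are called 1, 2, 4 and 5 after their table columns.

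The 8 libraries held 21701223 to 26413146 counts. Notch1, whose intracellular domain the transgene encodes, had 1051 to 1562 counts in control islets and 11388 to 36628 in β-tetO-NICD islets. Transcript length and level relative to the mean library correlated positively across 14656 genes in controls 1, 2 and 4 and β-tetO-NICD 1 (Spearman's rho of 0.42 to 0.50) and negatively in control 3 and β-tetO-NICD 2, 4 and 5 (rho of -0.52 to -0.17), so this property differed between the groups. The Y-linked gene Eif2s3y was counted in controls 2 and 4 and β-tetO-NICD 5 and had at most 1 count in the other 5 libraries. The study's methods name males as the source of islets for gene expression, which these counts do not match. Of 15082 genes tested with edgeR, 6.76% passed a Benjamini-Hochberg adjusted p of 0.05 in either direction, 4.19% as higher and 2.57% as lower in β-tetO-NICD islets.

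The deiodinase transcripts of the controls were almost all Dio1, whereas β-tetO-NICD islets held Dio1, a readily counted Dio2 transcript and a low level of Dio3. Of the 3 genes, Dio2 and Dio3 were past the adjusted threshold as higher, beside 4.19% of all genes tested. Dio1 was not past it as lower, beside 2.57%, although it was under some alternative settings. The contrast had chosen the genes, and Dio2 and Dio3 reached the count minimum only in β-tetO-NICD islets, so nothing is read from these calls. The ranges of the groups did not overlap for any of the 3, with Dio2 and Dio3 above and Dio1 below the controls, beside 8.22% of all genes tested that lay above and 7.92% that lay below without overlap.

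Dio2 lies on the minus strand at chr12:90724552-90738438 (GRCm38) and has a single annotated transcript of 5815 bases in 2 exons. Its promoter is shown because the gene had the largest change of the set. The 250 bases before the RefSeq start, chr12:90739039-90739288 on the minus strand of GRCm38.p6, lie 600 bases upstream of the start in the GENCODE annotation. Capitals mark the 8-base cAMP response element TGACGTCA at positions -95 to -88 from the RefSeq start:

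Dio2 promoter: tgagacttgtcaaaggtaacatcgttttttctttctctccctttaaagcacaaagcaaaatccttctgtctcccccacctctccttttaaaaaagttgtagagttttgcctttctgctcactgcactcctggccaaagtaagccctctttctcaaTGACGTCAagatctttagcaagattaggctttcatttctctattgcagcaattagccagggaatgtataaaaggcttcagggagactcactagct

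These letters, searched on both strands in windows of 250 bases before to 50 after the start, were present in 1.79% of 32851 RefSeq windows. They were looked for after the values of Dio2 had been seen. The 7-base letters GTGGGAA, which the Notch partner RBPJ is known to bind, were present in 6.38% of windows, and their 6-base core TGGGAA in 25.6%. Neither was found in the window of any of the 7 genes of the set that had one, which says only that those letters are not in these 300 bases.

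Controls 1 to 4 had 0, 2, 2 and 6 counts of Dio2, against 518, 319, 622 and 388 in β-tetO-NICD 1, 2, 4 and 5. The gene was at the limit of counting in controls, and the lowest β-tetO-NICD library lay far above the highest control. In CPM (read counts scaled to a common library size) these values were 0.102 ± 0.102 in control islets and 19.7 ± 4.41 in β-tetO-NICD islets (SD, n = 4 in each). Pooled over libraries, 10 counts in control islets and 1847 in β-tetO-NICD islets gave a ratio of 187, with a 95% exact interval of 102 to 391 that covers counting error only. The fitted log2 fold change was 7.49 with a standard error (SE) of 0.48.

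Dio3 is a single-exon gene of 2030 bases on the plus strand at chr12:110279068-110281097, in the imprinted Dlk1-Dio3 domain. Controls had 0, 3, 0 and 0 counts, and β-tetO-NICD islets had 11, 29, 46 and 15. It was present in every β-tetO-NICD library and in 1 control, although its level stayed low. The means were 0.032 ± 0.063 CPM and 1.02 ± 0.46 CPM (SD, n = 4), and the pooled counts of 3 and 101 gave a ratio of 34.2 (95% exact interval of 11.4 to 168, counting error only). The fitted log2 fold change was 4.81 with an SE of 0.83, and it was 7.61 without control 2, which held the 3 control counts. Dio2 and Dio3 reached the minimum of 10 counts only in the β-tetO-NICD group, so genes that entered the fit in this way had to differ.

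Dio1 (chr4:107291465-107307169, minus strand, 1690 bases in its longest transcript) had a fold change of the opposite sign and was not past the threshold in the main comparison. Controls had 1079, 2561, 1912 and 1112 counts and β-tetO-NICD islets 716, 713, 427 and 754. The highest β-tetO-NICD library, 38.0 CPM, was below the lowest control, 45.1 CPM, and the controls themselves spread up to 108.1 CPM. Dio1 averaged 69.6 ± 28.9 CPM in control islets and 29.3 ± 10.5 CPM in β-tetO-NICD islets (SD, n = 4), which gave a log2 fold change of -1.25 with an SE of 0.35. Without any single library it was -1.41 to -0.96. Dio1 was past the threshold without β-tetO-NICD 1 (-1.33), where 2583 of 15284 genes were called lower, against 388 of 15082 in the main fit. The same held with DESeq2 (-1.24, 1244 genes lower) and with either length offset (-1.56 and -1.45, 782 and 622 genes lower). It also held with the replicate block (-1.17, 270 of 15136) and without control 3 and β-tetO-NICD 1 together (-1.29, 3027 of 15197). Nothing is read from these calls.

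**Figure D1:**
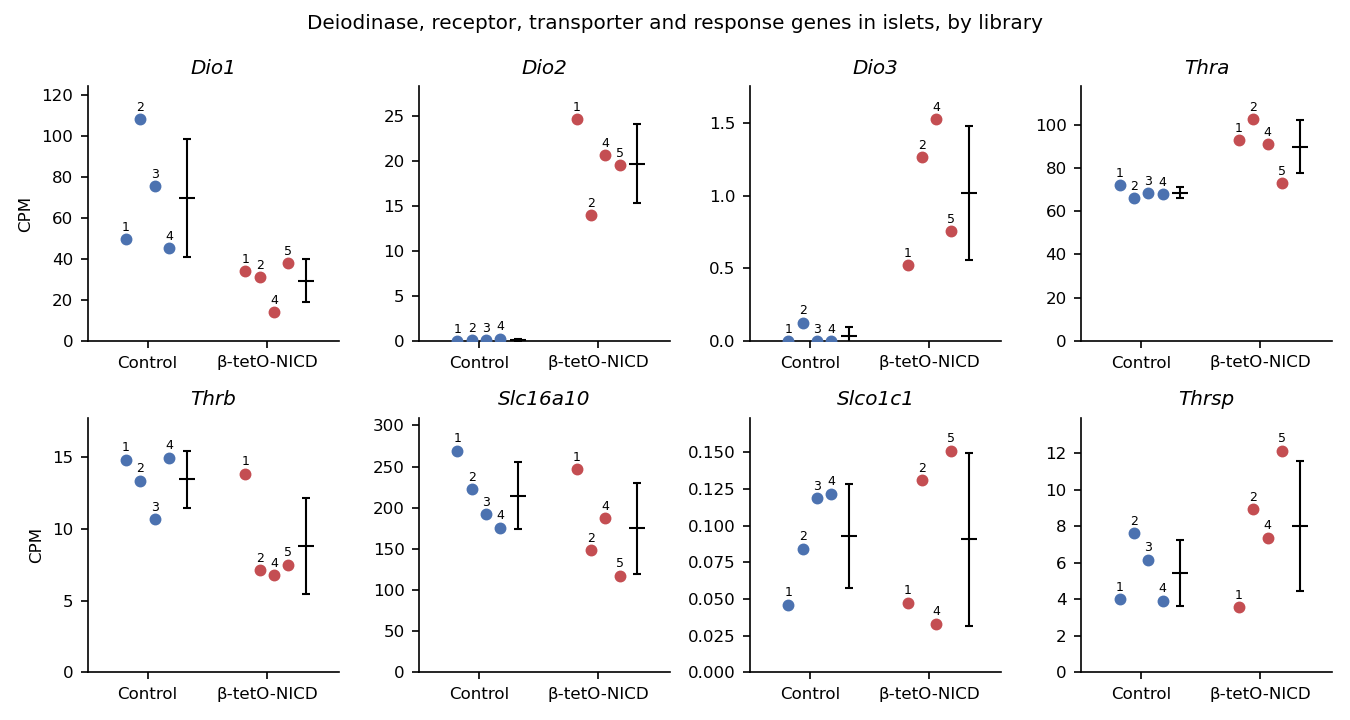
CPM of the 8 genes in each library, with the group on the x axis, 1 point per library labelled with its number, and the mean ± SD of 4 libraries as a bar beside them. Dio2 and Dio3 were near 0 in control islets and present in every β-tetO-NICD library, Dio1 was lower in all β-tetO-NICD libraries than in any control, and Thrb of β-tetO-NICD 1 lay among the controls.

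Levels per kilobase (kb) of the longest transcript allow the 3 deiodinases to be set against each other. Dio1 was 99.8% to 100% of their summed level in control islets and 66.1% to 85.9% in β-tetO-NICD islets. The share of Dio2 was 0% to 0.157% in controls. In β-tetO-NICD 1, 2, 4 and 5 it was 17.2%, 11.2%, 28.0% and 12.8%, a mean of 17.3% ± 7.57 (SD, n = 4), and Dio3 was 1.05% to 5.93%. Dio1 thus remained the leading deiodinase transcript in every library. The share depends on the length given to Dio1, whose 8 transcripts differ in length: with the median length of each gene, Dio2 was 4.52% to 13.1% of the sum in β-tetO-NICD islets, a mean of 7.49%. The summed level was 41.2 ± 17.1 CPM per kb in control islets and 21.2 ± 6.03 CPM per kb in β-tetO-NICD islets (SD, n = 4). The groups did not overlap in it, since the lowest control was at 26.7 and the highest β-tetO-NICD library at 26.2.

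**Figure D2:**
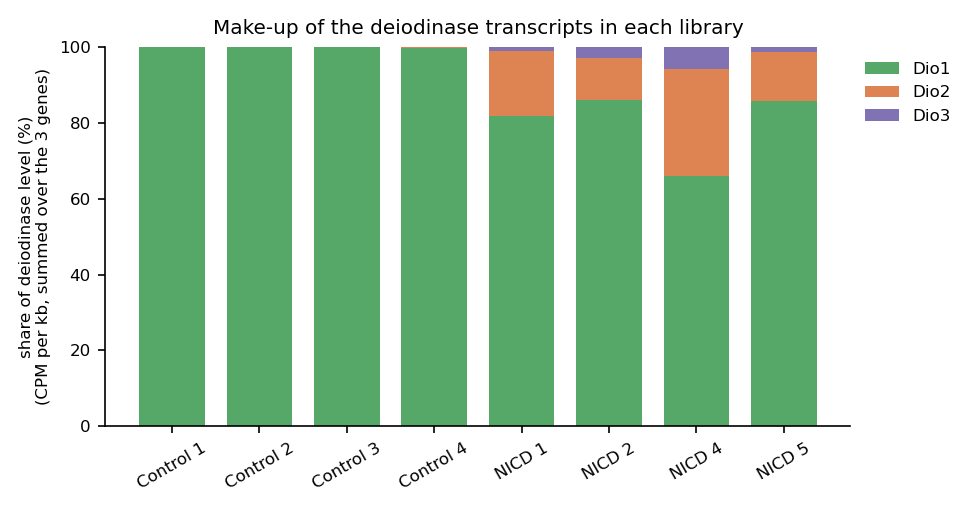
Share of each deiodinase in the summed CPM per kb of the 3 genes (y axis, percent) in each library (x axis, 1 bar per library). Controls were at 99.8% to 100% Dio1, and in β-tetO-NICD islets Dio2 made up 11.2% to 28.0% and Dio3 1.05% to 5.93%.

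The receptor genes had small fold changes of opposite sign, and the groups overlapped in Thrb. Thra (chr11:98740638-98769006, plus strand) encodes the receptor TRα, and also a form that does not bind T3. It had 1562, 1564, 1728 and 1673 counts in control islets and 1957, 2352, 2749 and 1448 in β-tetO-NICD islets. On the CPM scale the controls were tightly grouped, at 66.0 and above with an SD of 2.51, and β-tetO-NICD 5 was just above their highest value at 72.9, with the other 3 libraries at 91.2 to 102.6. The means were 68.5 ± 2.51 and 89.9 ± 12.4 CPM (SD, n = 4), which gave a log2 fold change of 0.39 with an SE of 0.14. The log2 fold change was 0.23 with an offset for transcript length, the property that differed between the groups. Thra shares 1075 bases with Nr1d1 on the opposite strand, which had a log2 fold change of 0.37 (SE 0.32), and whether counting used strand is not given in the sources used here.

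Thrb (chr14:17660261-18038090, plus strand) encodes TRβ. Its counts were 321, 316, 269 and 368 in control islets and 291, 163, 204 and 149 in β-tetO-NICD islets. β-tetO-NICD 1, at 13.8 CPM, lay within the control range of 10.6 to 14.9, while the other 3 were at 6.77 to 7.50 CPM. The means were 13.4 ± 1.99 and 8.80 ± 3.36 CPM (SD, n = 4), with a log2 fold change of -0.61 (SE 0.25), -0.91 without β-tetO-NICD 1, and -0.33 and -0.74 with the transcript length offset from the longest and the median lengths. Per kb, Thra exceeded Thrb 11.5 to 16.2 times in control islets and 17.0 to 36.5 times in β-tetO-NICD islets. With the median transcript length of each gene these ratios were 5.49 to 7.76 and 8.12 to 17.4, the same values on another scale.

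The groups overlapped in both transporters. Slc16a10 (chr10:40033532-40142258, minus strand) encodes MCT10, which carries T3, T4 and aromatic amino acids. It had 5842, 5266, 4856 and 4338 counts in control islets and 5195, 3396, 5635 and 2336 in β-tetO-NICD islets. The groups overlapped, with 215 ± 41.0 CPM in control islets and 175 ± 55.7 CPM in β-tetO-NICD islets (SD, n = 4) and a log2 fold change of -0.30 (SE 0.24). Slco1c1 (chr6:141524368-141570177, plus strand) encodes OATP1C1, a T4 carrier best known from the brain vasculature. It had 1, 2, 3 and 3 counts in control islets and 1, 3, 1 and 3 in β-tetO-NICD islets, at or under the floor of 3 counts in every library, and pooled it had 9 and 8. The 95% exact interval of the pooled ratio of β-tetO-NICD to control was 0.303 to 2.63 (counting error only), so a smaller difference than that was not detectable at this depth.

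Thrsp (chr7:97412938-97417730, minus strand) encodes Spot 14, a lipogenic protein that responds to thyroid hormone in liver. Its counts were 87, 181, 156 and 97 in control islets and 75, 205, 222 and 241 in β-tetO-NICD islets. β-tetO-NICD 1 was the lowest of all 8 libraries and the other 3 overlapped with or exceeded the controls. The means were 5.44 ± 1.80 and 8.00 ± 3.56 CPM (SD, n = 4), with a log2 fold change of 0.56 (SE 0.37).

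**Figure D3:**
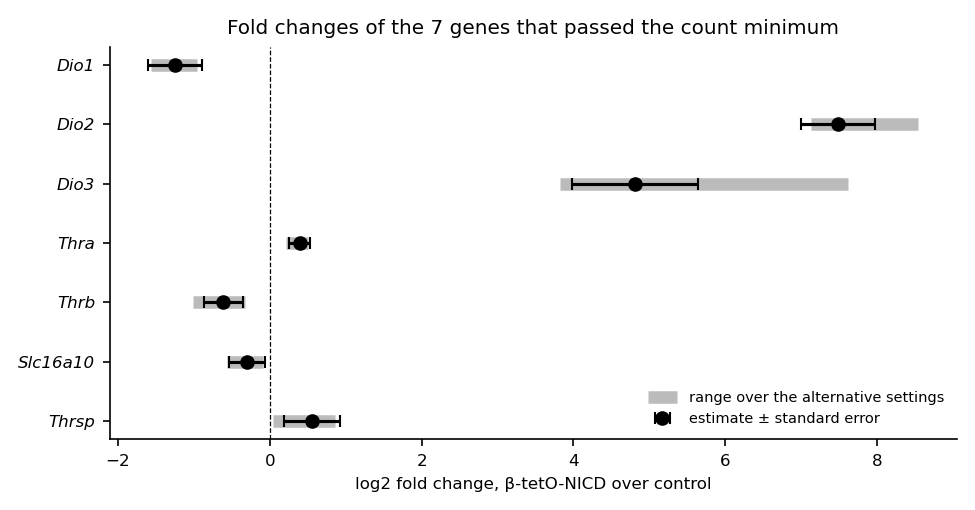
Log2 fold change of β-tetO-NICD over control islets (x axis) for the 7 genes that passed the count minimum (y axis), with points and bars for the estimate ± SE and grey bands for the range over the alternative settings. Dio2 stayed between 7.13 and 8.55 and Dio3 between 3.82 and 7.61, while the other 5 genes lay between -1.56 and 0.86.

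Of the 8 genes, 7 reached at least 10 counts in 4 libraries and were fitted, of which 2 passed as higher (Dio2 and Dio3) and 0 as lower, beside 4.19% and 2.57% of all genes tested. The groups did not overlap with β-tetO-NICD islets above for 3 of the 7 (Dio2, Dio3 and Thra) and below for 1 (Dio1), beside 8.22% and 7.92% of all genes tested. Since the contrast had chosen the genes, nothing is read from these counts. Their median log2 fold change was 0.39, and that of all genes tested was 0.00075.

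Ordered by level per kb, controls had Dio1 and Slc16a10 first, at means of 41.2 and 39.8 CPM per kb with overlapping ranges, followed by Thra at 28.0, Thrsp at 3.88 and Thrb at 2.17. Neighbours from Slc16a10 to Thrb did not overlap in range, although Thra lay within the wide range of Dio1. Slco1c1, Dio2 and Dio3 came last at 0.029, 0.017 and 0.016 CPM per kb and overlapped each other. In β-tetO-NICD islets the order was Thra at 36.7, Slc16a10 at 32.4, Dio1 at 17.3, Thrsp at 5.72, Dio2 at 3.38, Thrb at 1.42, Dio3 at 0.50 and Slco1c1 at 0.029 CPM per kb. Each of the first 4 overlapped in range with the next gene, whereas Dio2, Thrb, Dio3 and Slco1c1 did not overlap with one another in that order. Dio2 moved from the end of the order to a level above Thrb, but with median transcript lengths it ranked below Thrb. Median lengths also placed Thrb above Thrsp in both groups and Slc16a10 above Dio1 in controls, so these orders depend on the transcript assumed.

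The values of the set were also described within libraries that shared one of the properties above. These subsets were the libraries with Eif2s3y counts (2 controls, 1 β-tetO-NICD) and without them (2 and 3), and those with positive (3 and 1) and negative (1 and 3) length correlations, so 3 of the 4 held a group of 1 library and none was tested. Differences on the log2(CPM) scale (prior count of 2) were 6.38 to 7.36 for Dio2, 2.40 to 3.85 for Dio3 and -1.56 to -0.87 for Dio1. Thra differed by 0.12 to 0.44, with the lowest value in the libraries with Eif2s3y counts. Thrb differed by -0.05 in the libraries with positive length correlations and by -0.57 in those with negative ones. Slc16a10 and Thrsp had opposite signs in the same pair of subsets, with 0.17 and -0.46 against -0.37 and 0.58.

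Other genes of thyroid hormone handling were read from lists of transporters, selenoprotein synthesis and DIO2 turnover, receptor partners, T3-responsive genes, binding proteins, thyroid gland genes and the neighbours of Dio2 and Dio3. Of 81 genes listed, 77 were in the table, 65 were tested, and 2 rose and 5 fell at an adjusted p of 0.05 in edgeR's quasi-likelihood test, beside 4.19% and 2.57% of all genes tested. With the transcript length offset these counts were 6 and 7, beside 5.36% and 5.18% of all genes in that fit, and 3 and 5 with median lengths in the offset, beside 4.93% and 4.12%. The lists were drawn up with earlier results known, so their calls are not independent support for a theme. The median log2 fold change of the 65 was -0.17. The gene with the largest change by far was Iyd.

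Iyd encodes iodotyrosine deiodinase (dehalogenase), which recovers iodide from iodotyrosines in the thyroid gland and belongs to another enzyme family than the 3 deiodinases. It had 6, 13, 8 and 13 counts in control islets and 437, 854, 1086 and 609 in β-tetO-NICD islets. Every β-tetO-NICD library lay far above every control, with means of 0.417 ± 0.141 and 31.2 ± 7.52 CPM (SD, n = 4). The log2 fold change was 6.20 (SE 0.31; edgeR adjusted p = 2.22e-05), and without any single library it was 6.07 to 6.36. Among controls only 2 and 4 reached 10 counts, so Iyd met the count minimum through the β-tetO-NICD libraries, where it is high. It is not in the fit that required 10 counts in every library. The last 30 bases before its RefSeq start, chr10:3540244-3540273 on the plus strand of GRCm38.p6, are shown because they hold the RBPJ letters GTGGGAA, in capitals, at positions -16 to -10, which 6.38% of windows hold. The GENCODE start lies 34 bases further upstream, so these bases are transcribed in that annotation, and the gene was looked at after its values had been seen:

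Iyd upstream: gtataaatgccagtGTGGGAAagcgcacac

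The other thyroid gland genes were low or did not pass the test. Tg, the precursor of thyroid hormone, had at most 1 count in any library, and the transcription factor genes Foxe1 and Nkx2-1 were also at 0 or 1.

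In selenoprotein synthesis and DIO2 turnover 4 of 11 tested genes passed, 1 as higher and 3 as lower, beside 6.76% of all genes in either direction. Sephs2, which makes the selenium donor for selenocysteine, had 673 to 1117 counts in control islets and 1101 to 1900 in β-tetO-NICD islets and rose, with a log2 fold change of 0.97 (SE 0.23; edgeR adjusted p = 0.0357). Sepsecs, the enzyme that completes selenocysteine on its transfer RNA, fell by 0.84 on the log2 scale (SE 0.21; edgeR adjusted p = 0.0436). Lrp8, a receptor that takes up selenoprotein P, had 679, 1345, 737 and 1305 counts in control islets and 386, 315, 254 and 344 in β-tetO-NICD islets and fell by 1.56 on the log2 scale (SE 0.30; edgeR adjusted p = 0.0165). Usp33, which removes ubiquitin from DIO2, fell by 0.75 (SE 0.19; edgeR adjusted p = 0.0431), whereas the related Usp20 had a log2 fold change of -0.10 (SE 0.16). Of the 11 tested genes of this list 5 had positive and 6 negative values, with a median of -0.10. Calls other than Iyd were close to the threshold: leaving out each of the 8 libraries in turn, Lrp8 passed in 7 fits and lost the call without β-tetO-NICD 2 (log2 fold change of -1.54), while Sephs2 and Usp33 passed only in the 2 fits without control 3 or β-tetO-NICD 1, and Sepsecs in the 1 without β-tetO-NICD 1. Over those 8 fits their log2 fold changes were 0.80 to 1.08, -0.93 to -0.67 and -1.08 to -0.74.

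No other transporter passed the test, 6 of 9 tested having positive and 3 negative values, whereas with the transcript length offset 3 passed as higher and 2 as lower, beside those 5.36% and 5.18%, and with median lengths 1 passed as higher (Slc17a4) and 0 as lower. Slc17a4, a T3 and T4 carrier of gut and kidney, had a log2 fold change of 1.18 (SE 0.34; edgeR adjusted p = 0.0655). The amino acid transporter Slc7a8, which also carries T3, had -0.69 (SE 0.22; edgeR adjusted p = 0.0799), and its relative Slc7a5 had 0.21 (SE 0.17). Of all genes tested, 50.05% had positive values and 6.76% passed in either direction, and nothing is read from the tallies of these lists. All 6 genes of binding and disposal had positive values, with a median of 0.64, and none passed. Among them Ttr, the T4 carrier transthyretin, which is also an abundant product of islet endocrine cells, had 14814 to 48975 counts in control islets and 51313 to 76837 in β-tetO-NICD islets, and a log2 fold change of 1.34 (SE 0.36; edgeR adjusted p = 0.0553).

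None of the 13 receptor partners and coregulators passed, beside 6.76% of all genes in either direction. With the transcript length offset Rxra did (log2 fold change of 0.61, edgeR adjusted p = 0.0272), which was lost with median lengths (0.45, edgeR adjusted p = 0.105). Rxra and Rxrb, the partners of both receptors, had log2 fold changes of 0.42 (SE 0.18) and 0.38 (SE 0.14), and the corepressor gene Ncor1 had -0.84 (SE 0.36). Among the T3-responsive genes 10 of 12 tested had negative values, with a median of -0.36, and 1 fell, where 50.05% of all genes tested had positive values and 2.57% passed as lower. Nothing is read from this tally about T3 targets. This was Atp2a2, the calcium pump SERCA2 of the endoplasmic reticulum, with 24033, 18576, 17603 and 25587 counts in control islets and 11783, 7016, 11581 and 4978 in β-tetO-NICD islets, and its log2 fold change was -1.27 (SE 0.27; edgeR adjusted p = 0.0259). Leaving out libraries in turn it passed only without control 3, β-tetO-NICD 1 or β-tetO-NICD 5, with log2 fold changes of -1.53 to -1.12 over the 8 fits. Klf9, a direct target of the receptors, had -0.80 (SE 0.47), Hr had -0.26 (SE 0.28), Me1 had -0.25 (SE 0.17), and Mafa, a β cell transcription factor that T3 is known to induce, had -0.86 (SE 0.45), none of which passed.

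**Figure D4:**
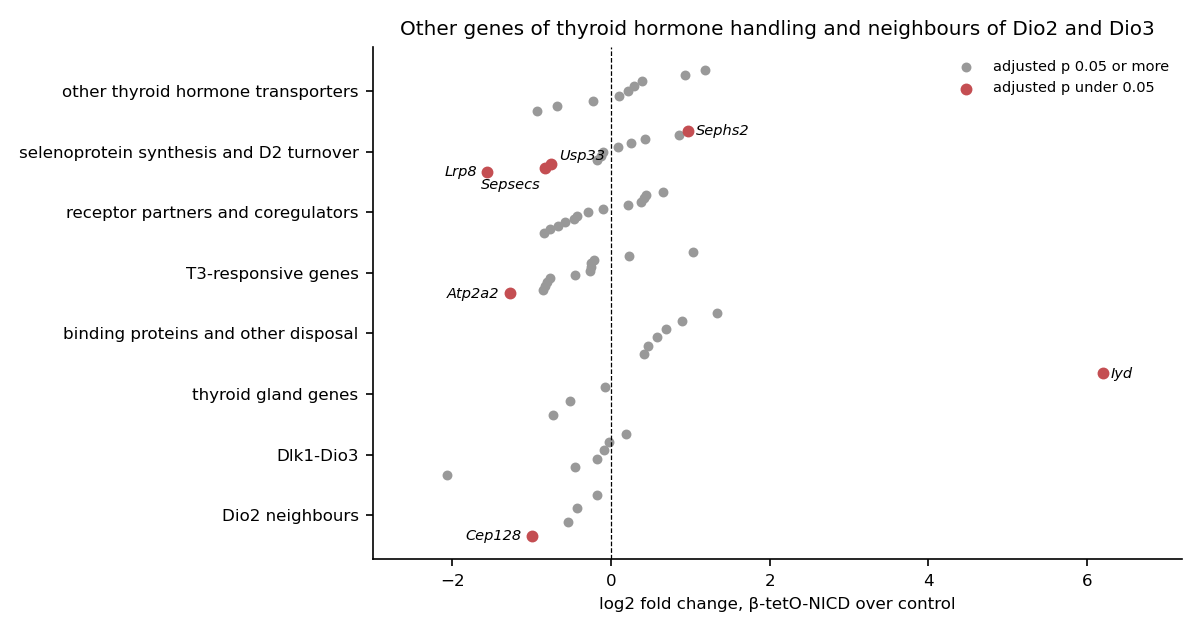
Log2 fold change of β-tetO-NICD over control islets (x axis) for the 65 tested genes of the pathway and locus lists (rows), 1 point per gene, in red where the adjusted p was under 0.05. Iyd stood apart at 6.20, and the other called genes lay between -1.56 and 0.97.

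None of the 4 tested neighbours of Dio2 and the 6 of Dio3 on chromosome 12 passed as higher, and 1 passed as lower. Of all genes tested, 4.19% and 2.57% did, so nothing is read from these counts. Of the tested neighbours of Dio2, Cep128, which lies 260.1 kb away, had a log2 fold change of -0.996 (SE 0.24; edgeR adjusted p = 0.0403) and fell. Leaving out libraries in turn it passed only without control 3 or β-tetO-NICD 1, with -1.14 to -0.89 over the 8 fits. Gtf2a1, Nrxn3 and Ston2 did not pass and had negative values, and Tshr, the thyrotropin receptor gene, had at most 7 counts. In the Dlk1-Dio3 domain Dlk1 had 184, 202, 369 and 54 counts in control islets and 92, 21, 60 and 15 in β-tetO-NICD islets. Its groups overlapped, with a log2 fold change of -2.07 (SE 0.64; edgeR adjusted p = 0.0764) of the opposite sign to that of Dio3. Rtl1, Begain, Wdr25, Wars and Ppp2r5c had log2 fold changes of -0.45 to 0.18, and none passed.

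Cell type markers were scored in the same libraries, and none of 11 lists passed an adjusted p of 0.05. The mean log2(CPM) of 9 β cell markers was 9.74 to 10.08 in control islets and 8.91 to 9.01 in β-tetO-NICD islets, and they took 15.3% to 17.6% of all counts in the former and 6.30% to 14.02% in the latter. Not all members were lower: Pdx1 had 2260 to 4033 and 2442 to 4016 counts and Nkx6-1 3429 to 6026 and 3597 to 6308, against 34186 to 47237 and 6369 to 9087 for G6pc2. The 5 α cell markers were 1.13 higher, and took 1.10% to 4.02% and 5.77% to 6.49% of counts. Macrophage and lymphocyte markers (7 and 5 genes) were 0.28 and 1.31 higher, and together with the β and α cell lists these did not overlap between groups. Each of these 4 had an exact two-sided permutation p of 0.0286, the smallest that 4 against 4 libraries allow, and 0.0786 adjusted over 11 lists. The lymphocyte genes took at most 0.0027% of counts in any library. The 3 δ cell markers were 1.14 higher, as large a difference as in α cells, but overlapped between groups through control 3 (exact permutation p = 0.0571, adjusted 0.126). The PP cell, acinar, duct, endothelial, mesenchymal and Schwann cell lists also overlapped between groups. The part of these differences in the levels of Dio1, Dio2, Dio3 and the other genes was not tested.

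The genes most like Dio2 across the 8 libraries by Pearson's r of log2(CPM) were Zfp750, Lmntd1, Tagln3, Tacr1 and Iyd, with r of 0.987 to 0.995 among 15081 other genes. All 5 were low in control islets and higher in each β-tetO-NICD library. Tacr1, a tachykinin receptor gene, had 1 to 10 counts in control islets and 890 to 1929 in β-tetO-NICD islets, and Lmntd1 had 0 to 3 and 232 to 582. Dio3 had an r of 0.927 with Dio2, at rank 159, Notch1 had 0.969, at rank 27, and 281 genes exceeded 0.9. The libraries fall into 2 separate groups in all of these genes, so r here reflects the shared difference between groups, and it is given as a description.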

How the data were processed

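Islet RNA of control and β-tetO-NICD mice (4 libraries each) was sequenced from TruSeq stranded mRNA libraries. Per the submitters' notes and the study's methods, the authors pseudoaligned reads to GRCm38 with kallisto, whose version is not given in the sources used here, and deposited whole-number counts per gene symbol. The authors' table of fold changes and p-values was not used. β-tetO-NICD columns 4 and 5 were matched to the group only.

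The 8 genes and all lists were chosen with earlier results of these data known. Counts were fitted with edgeR 4.0.16 (quasi-likelihood test, TMM scaling, genes with at least 10 counts in 4 libraries, Benjamini-Hochberg adjustment over 15082 genes) under R 4.3.3, after a check on simulated data. No p-value is given for the 8 genes. Other genes named were those called in the lists and those fixed by role. CPM used TMM-scaled totals, and levels per kb the longest GENCODE M21 transcript. With 21701223 to 26413146 counts per library, 3 counts (0.0995 to 0.151 CPM) was taken as the floor. Promoters came from RefSeq (GRCm38.p6), where 7 of the 8 genes matched. Marker lists were compared by exact two-sided permutation of libraries. Alternatives were DESeq2 1.42.0, limma 3.58.1 (voom), other scalings and filters, covariates (acinar or mesenchymal score, Eif2s3y), a transcript length offset, a replicate block and leaving out libraries. No 2 libraries of the same group were copies of one another by a chi-square test of their counts. Libraries carried separate codes in the labels, and the study's methods count 4 animals' islets per genotype, taken here as separate mice. The values of some genes of the lists are not reported here.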

Additional observations from a re-analysis of the deposited data

Results flagged for a closer look

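In 5 of 52 groups of 4 libraries examined, 1 library lay far from the other 3 by Dixon's test, where chance gives about 1 in 20, or 2.6. Dio3 in control 2 had a gap of 1, the whole of the group's range, as it held the only 3 counts among controls. Thrb in β-tetO-NICD 1 had a gap of 0.896, at 13.8 CPM against 6.77 to 7.50 CPM in the other β-tetO-NICD libraries. Sepsecs in the same library had a gap of 0.867, at 65.7 CPM against 35.2 to 39.2 CPM. The acinar marker score of control 1 had a gap of 0.987, at 12.85 against 11.93 to 11.95. The duct marker score of β-tetO-NICD 5 had a gap of 0.853, at 4.69 against 4.02 to 4.12.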

How the results depend on the processing

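No fitted log2 fold change of the set changed sign in an alternative fit, whereas Slc16a10 and Thrsp did within the libraries with positive length correlations. Genes called higher (632) and lower (388) were 1495 and 1244 with DESeq2, 349 and 177 with the mesenchymal score as a covariate, and 2981 and 3027 without control 3 and β-tetO-NICD 1 together (added after seeing the data). Genes called lower were 257 with Eif2s3y as a covariate, 782 with the length offset and 622 with median lengths, an offset added after seeing the data. Leaving out each library gave 267 to 2481 higher and 106 to 2583 lower. Of the set, 2 were called higher in all fits but 2 (3 with DESeq2, which added Thra, and 0 where 10 counts in every library were required, which removes Dio2 and Dio3). Called lower was 1 (Dio1) with DESeq2, either length offset or the block, and 2 (Dio1 and Thrb) without control 3 and β-tetO-NICD 1. The number was 0 to 2 without single libraries (Dio1 and Thrb without β-tetO-NICD 1). Of all genes, 1244 of 15082 were lower with DESeq2, 782 and 622 with the offsets, and 270 of 15136 with the block. Without control 3 and β-tetO-NICD 1 they were 3027 of 15197, and without β-tetO-NICD 1 alone 2583 of 15284. Log2 fold changes moved for Dio2 (7.13 to 8.32 without single libraries), Dio3 (4.42 to 7.61), Thra (0.23 with the length offset, 0.21 with median lengths), Thrsp (0.12 with the offset, 0.46 with median lengths, 0.04 with the block, 0.29 to 0.80 without single libraries, lowest without β-tetO-NICD 5), Slc16a10 (-0.09, -0.30 with median lengths, -0.51 to -0.15, extremes without β-tetO-NICD 1 and 5) and Thrb (-1.01 without control 3 and β-tetO-NICD 1). The replicate block, over the 2 libraries of each group that carry numbers 1 and 2, gave 340 genes higher, 3 listed pathway genes lower, 8.55 for Dio2 and 3.82 for Dio3; the numbers did not pair the samples (correlations of deviations of 0.276 and -0.0901). Listed pathway genes called higher (2) were 8 with DESeq2, 1 with 10 counts in every library, the acinar score or Eif2s3y, 6 with the length offset and 10 without control 3 and β-tetO-NICD 1. Those called lower (5) were 8, 1 with the mesenchymal score, 2 with Eif2s3y and 19 respectively. Leaving out each library gave 1 to 6 higher and 0 to 17 lower. Promoter letters in the set were 0 for both RBPJ forms and 1 for TGACGTCA. Of the 5 genes most like Dio2 by r, 0 were among the first 5 by Spearman's rho or by r within the 4 β-tetO-NICD libraries. The causes of these moves were not tested. Depth limits Slco1c1 and the control levels of Dio2 and Dio3.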
